A study of Mus musculus with 6 samples.

Results

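The 8 immunoglobulin heavy-chain constant genes of the mouse, Ighm, Ighd, Ighg3, Ighg1, Ighg2b, Ighg2c, Ighe and Igha, were followed in RNA sequencing of articular cartilage from knockout (KO) and wildtype mice. The members were the genes of the deposited table that carry one of these names, 8 of 34709 genes, and 7 of them passed the filter on low values (at least 0.5 FPKM on average over the 6 libraries). FPKM is a fragment count corrected for gene length and library size. Libraries came from articular cartilage of aged male mice with a C57BL/6J background, 3 labelled KO and 3 labelled wildtype. The authors state that wildtype and KO littermates served their study of age-related osteoarthritis, and the labels do not mention littermates. The labels also name no treatment and no cell type to which the knockout would be confined. Whether a library was made from 1 animal or from a pool was not given in the sources used here.

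An antibody's heavy-chain constant region sets its class, or isotype. A naive B cell transcribes Ighm and Ighd from the same rearranged variable segment and chooses between them by transcript processing, so that it carries IgM and IgD on its surface. On activation it can delete the DNA between Ighm and a downstream constant gene, a step called class switch recombination, and it then makes IgG, IgE or IgA with the same specificity. Plasma cells, which secrete antibody and live mainly in the bone marrow, carry far more heavy-chain transcript per cell than naive B cells.

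All 8 genes lie on the minus strand of chromosome 12 within chr12:113254830-113422730 (GRCm38). Transcription meets them in the order Ighm, Ighd, Ighg3, Ighg1, Ighg2b, Ighg2c, Ighe and Igha, from Ighm at chr12:113418558-113422730 to Igha at chr12:113254830-113260236. Each gene gives a secreted and a membrane-bound form by the choice of its last exons. The 4 gamma genes are close relatives. Their annotated secreted transcripts were 73.9% to 86.4% identical over the 6 pairs, with Ighg2b and Ighg2c the most alike. The hinge exon joins the antigen-binding arms to the stem of the antibody. It had 39.6% to 77.3% identity and was the least alike part, except between Ighg2b and Ighg2c. For that pair the third constant domain exon of the membrane form was slightly less alike, at 77.1%. The first membrane exon reached 89.3% to 96.2%. The hinge exons are shown because they differ most in all other pairs of gamma genes and their cysteines link the paired heavy chains. The sequences were taken from the GENCODE M21 transcripts (GRCm38, exon 2 of each gene, minus strand, 5′ to 3′), and capitals mark in-frame cysteine codons. Ighg3 (chr12:113360529-113360576) has 1 such codon in 48 bases, Ighg1 (chr12:113329844-113329882) has 4 in 39 bases, Ighg2b (chr12:113307261-113307326) has 4 in 66 bases and Ighg2c (chr12:113288263-113288325) has 3 in 63 bases. The hinge exon of Ighd (chr12:113415562-113415666), with 105 bases and 0 such codons, is set beside them for contrast.
Ighg3: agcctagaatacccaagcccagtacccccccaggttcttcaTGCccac
Ighg1: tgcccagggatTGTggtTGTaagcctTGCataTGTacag
Ighg2b: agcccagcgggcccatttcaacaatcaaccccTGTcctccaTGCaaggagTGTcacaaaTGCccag
Ighg2c: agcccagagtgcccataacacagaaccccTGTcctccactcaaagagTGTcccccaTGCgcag
Ighd: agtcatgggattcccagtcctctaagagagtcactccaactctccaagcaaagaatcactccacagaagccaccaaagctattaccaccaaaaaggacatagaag

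Despite this likeness, reads of the length used here can be assigned. Of the windows of 150 bases in the annotated exons of the members, 0 occurred in the transcript of another gene on either strand. The longest run shared by members was 88 bases, between Ighg3 and Ighg2b, and Ighg2b and Ighg2c shared 78. Pieces of reads shorter than this could still be shared, and how the counting treated them was not given in the sources used here.

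The libraries were compared before the members. Total deposited counts ranged from 52268311 to 63331135. KO replicates 2 and 3 differed by little more than counting noise (noise ratio 1.44, where the other 14 pairs had 5.93 to 21.3) and were averaged into 1 sample, leaving 2 KO and 3 wildtype samples. KO replicate 1 was nearer to wildtype replicate 2, with a ratio of 6.47, than to KO replicates 2 and 3, with 18.8 and 18.4. Whether KO replicates 2 and 3 are 1 library sequenced again, and whether KO replicate 1 carries the right label, is not settled by the sources used here, and each KO mean and SD rests on these libraries. P-values therefore measure the spread between very few samples, which may be partly technical. Chondrocyte markers were present but small beside marrow ones. The 15 chondrocyte genes summed to 670 to 1475 FPKM in KO and 663 to 878 in wildtype, with KO replicate 1 the highest. The 9 erythroid genes summed to 24953 to 60709 FPKM in KO and 71710 to 108566 in wildtype, and the 10 neutrophil lineage genes to 48825 to 60420 in KO and 25750 to 42172 in wildtype. The groups did not overlap in either of the latter sums, and their part in the values below was not tested.

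The main pattern was a different isotype make-up, while the total of the members differed from wildtype in both directions among the KO libraries. The gamma (IgG) genes Ighg1, Ighg2b and Ighg2c were higher in every KO library than in any wildtype library, where 11.3% of all genes were. Ighd, which marks mature naive B cells, was lower in every KO library, where 13.7% of all genes were. Ighg3, the other gamma gene, overlapped between the groups, with a log2 difference (KO minus wildtype) of -1.12. Ighm overlapped between the groups. The sum of all members was lower in KO replicate 1, and higher in KO replicates 2 and 3, than in any wildtype library. The quasi-likelihood test of edgeR on the 5 samples, adjusted by the Benjamini-Hochberg method, gave 0 of the 7 tested members and 0% of the 15373 tested genes an adjusted p under 0.05, so none is called changed. At an unadjusted p under 0.05 there were 4 of the 7 members and 13.7% of all genes. Of these members 3 were higher in KO, where 7.63% of all genes were, and 1 was lower, where 6.07% were. DESeq2 on the same samples called 4 of the 7, where it called 6.07% of its tested genes (879 genes). It called 3 members as higher, where 3.66% of genes were, and 1 as lower, where 2.41% were. With the 6 libraries as labelled, edgeR called 3 of the 7, where it called 3.71% of all genes (570 genes). Of these 2 were higher, where 2.46% of genes were, and 1 was lower, where 1.25% were.

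Levels lay apart among the members. Their order is given by FPKM and turns for some members with another gene length. In wildtype, Ighm came first with 955 ± 99.99 FPKM (SD, n = 3), followed by Igha with 265 ± 0.567, Ighd with 54.4 ± 16.9, Ighg2c with 45.5 ± 6.98, Ighg2b with 27.4 ± 5.19, Ighg3 with 12.1 ± 9.32 and Ighg1 with 10.6 ± 5.58. Neighbours in this order that overlapped were Ighd with Ighg2c and Ighg3 with Ighg1. In KO, the order was Ighm with 795 ± 266 FPKM (SD, n = 2), Igha with 260 ± 168, Ighg2c with 118 ± 15.2, Ighg2b with 90.8 ± 46.1, Ighg1 with 64.3 ± 44.1, Ighd with 17.8 ± 6.05 and Ighg3 with 5.34 ± 2.79. Here Ighg2c overlapped with Ighg2b, and Ighg2b with Ighg1. Ighg1 thus stood behind Ighg3 in the wildtype means and ahead of Ighd in KO. In bulk tissue, fewer cells of a type and less RNA per cell cannot be told apart.

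**Figure D1:**
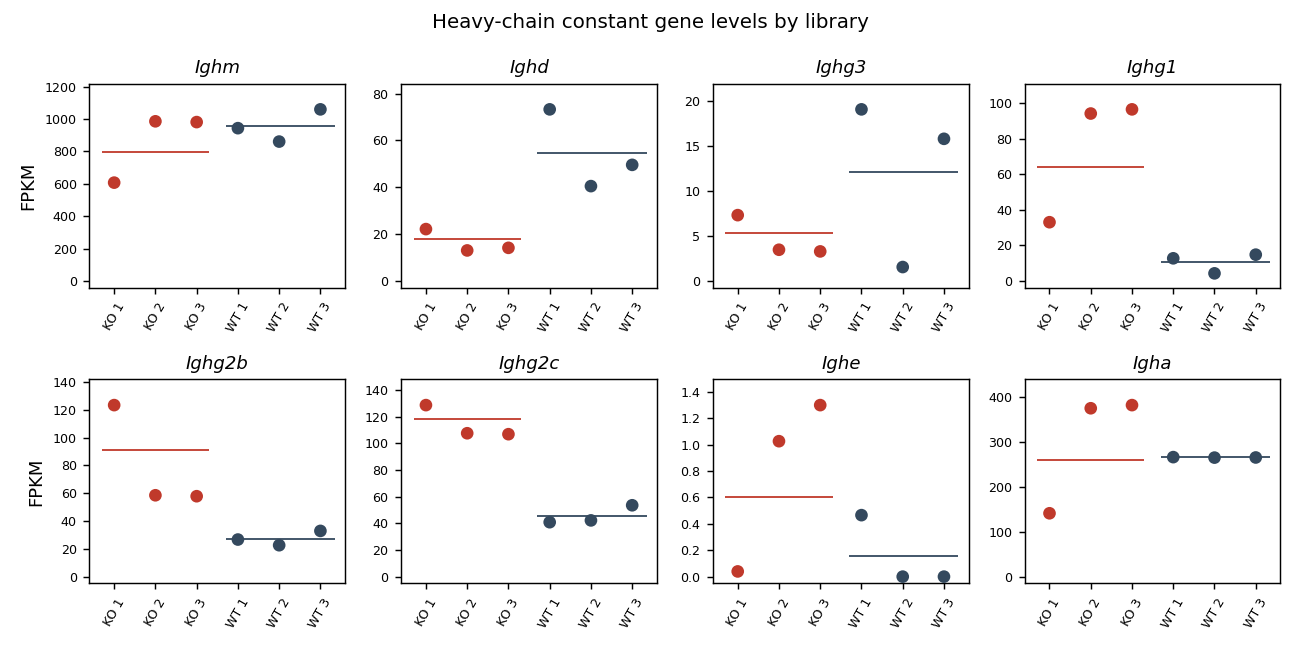
FPKM (y axis, a linear scale of its own in each panel) of the 8 heavy-chain constant genes in each of the 3 KO (red) and 3 wildtype (WT, dark) libraries, with lines at the group means, KO replicates 2 and 3 counted as 1 sample. All KO points lie above all wildtype points for Ighg1, Ighg2b and Ighg2c and below them for Ighd, while KO replicate 1 stands away from KO replicates 2 and 3 for Ighm, Ighg1, Ighg2b and Igha.

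Ighm encodes the mu chain of IgM, the first class made by every B cell and also secreted by plasma cells. In KO replicates 1 to 3 its level was 607.1, 986 and 981 FPKM, and in wildtype replicates 1 to 3 it was 944, 861 and 1060 FPKM. The same order of replicates is used for the other genes. KO replicate 1 was the lowest library, while KO replicates 2 and 3 lay inside the wildtype range, so the groups overlapped. The log2 difference (KO minus wildtype) was -0.26 (SE 0.26), with an adjusted p of 0.768 by edgeR's quasi-likelihood test.

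Ighd encodes the delta chain of IgD, which is co-expressed with IgM on mature naive B cells and seldom secreted. It was at 22.1, 13.0 and 14.1 FPKM in the KO libraries and at 73.2, 40.5 and 49.5 FPKM in wildtype. The groups did not overlap, and the highest KO library was the one labelled replicate 1. The KO mean was 0.328 times the wildtype mean, with a log2 difference of -1.57 (SE 0.31) and an adjusted p of 0.166 by edgeR's quasi-likelihood test. Adjusted p-values over the 16 alternatives ranged from 0.000125 to 0.487 and the log2 difference from -2.03 to -1.21. Ighd is the 1 member on the lower side among those that did not overlap, where 13.7% of all genes had every KO library below every wildtype library.

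Relative to Ighm, with which it shares its primary transcript, Ighd had 3.64, 1.32 and 1.44 FPKM per 100 FPKM of Ighm in KO and 7.76, 4.70 and 4.67 in wildtype, again without overlap. Relative to Cd79a, the signalling chain of the B cell receptor, it did not stand apart. Per 100 FPKM of Cd79a there were 48.5, 49.9 and 53.7 FPKM of Ighd in KO and 74.5, 42.9 and 56.6 in wildtype, and KO lay inside the wildtype range. Ighm did stand apart on that scale, at 1331, 3783 and 3732 FPKM per 100 of Cd79a in KO and 960, 913 and 1210 in wildtype, with every KO library above every wildtype library. Cd79a itself was lower in every KO library, at 45.6, 26.1 and 26.3 FPKM against 98.3, 94.2 and 87.6 in wildtype. Both ratios therefore carry the difference in Cd79a, and the level of Ighm alone overlapped between the groups.

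Among the gamma genes, Ighg2c encodes IgG2c, the C57BL/6 counterpart of IgG2a, a class that engages activating Fc receptors and complement. Its level was 128.7, 107.6 and 106.9 FPKM in KO and 40.9, 42.2 and 53.6 FPKM in wildtype. The KO libraries lay close together and far above the wildtype ones. The log2 difference was 1.40 (SE 0.17), with an adjusted p of 0.111 by edgeR's quasi-likelihood test, the lowest of the members, and it ranged from 1.20 to 1.58 over the alternatives. With the 6 libraries as labelled the adjusted p was 0.0266 by edgeR.

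Ighg2b, the neighbouring gene of the IgG2b class, was at 123.5, 58.6 and 57.9 FPKM in KO and 26.7, 22.6 and 32.9 FPKM in wildtype. All KO libraries were higher than all wildtype libraries, with KO replicate 1 far above KO replicates 2 and 3. The log2 difference was 1.77 (SE 0.33), with an adjusted p of 0.166 by edgeR's quasi-likelihood test and a range from 1.05 to 2.25 over the alternatives. It was 1.05 without KO replicate 1.

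Ighg1, which encodes IgG1, the class linked to help by T cells through interleukin-4, showed the opposite order within KO. It was at 33.1, 94.3 and 96.7 FPKM in KO and at 12.7, 4.25 and 14.8 FPKM in wildtype. KO replicate 1 was the lowest of the KO libraries and still above every wildtype library. The KO mean was 6.07 times the wildtype mean, with a log2 difference of 2.61 (SE 0.55), the largest of the members, and an adjusted p of 0.166 by edgeR's quasi-likelihood test. The difference was 1.74 when the merged KO sample was left out and 3.15 without KO replicate 1. These 3 gamma genes are the members with every KO library above every wildtype library, where 11.3% of all genes had this.

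Ighg3, the IgG3 gene, went the other way from its neighbours. It was at 7.31, 3.46 and 3.28 FPKM in KO and 19.1, 1.54 and 15.8 FPKM in wildtype. Wildtype replicate 2 was the lowest of all 6 libraries, 12.4 times below wildtype replicate 1, so the groups overlapped. The log2 difference was -1.12 (SE 0.88), with an adjusted p of 0.673 by edgeR's quasi-likelihood test.

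Ighe, the IgE gene, was near the limit of detection and was not tested. It was at 0.0394, 1.03 and 1.298 FPKM in KO, which stood for 4, 115 and 145 deposited counts. In wildtype it was at 0.465 FPKM (49 counts) in replicate 1 and at 0 in replicates 2 and 3. Since about 4 deposited counts stand for 1 fragment, 3 fragments or 12 counts were taken as the floor. A count of 0 then allows up to 0.125 and 0.119 FPKM in wildtype replicates 2 and 3, and KO replicate 1 lay under its own floor of 0.129 FPKM. Libraries of both groups lay above and below these limits.

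Igha encodes IgA, the class of mucosal surfaces and of many long-lived marrow plasma cells. It was at 141.0, 375 and 382 FPKM in KO and at 266.0, 264.9 and 265.2 FPKM in wildtype. The wildtype libraries were nearly equal, with a coefficient of variation of 0.214%, while KO libraries lay on both sides of them. The log2 difference was -0.04 (SE 0.35), with an adjusted p of 0.985 by edgeR's quasi-likelihood test. It was 0.47 without KO replicate 1 and -0.83 without the merged KO sample.

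**Figure D2:**
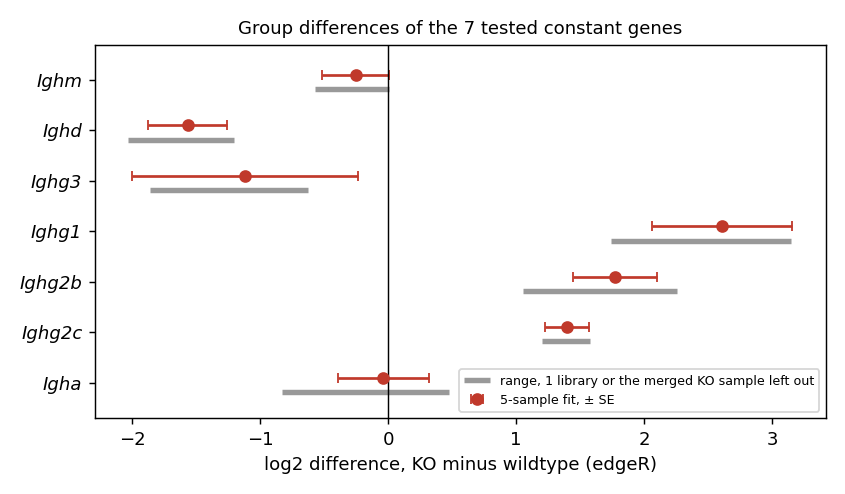
Log2 difference (KO minus wildtype, x axis) of the 7 tested members in the 5-sample edgeR fit, with bars of 1 standard error (red) and, in grey, the range when each library or the merged KO sample was left out. Ighg1, Ighg2b and Ighg2c lie above 0 and Ighd and Ighg3 below 0 over their whole range, while the ranges of Ighm and Igha cross 0.

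Isotype shares were then computed in each library as parts of the summed FPKM of the 8 members. The sum was 1063, 1639 and 1643 FPKM in KO and 1383, 1237 and 1492 FPKM in wildtype. KO replicate 1 was below every wildtype library, and KO replicates 2 and 3 were above every wildtype library. Class-switched isotypes (the 4 gamma genes, Ighe and Igha) made up 40.8%, 39.0% and 39.4% of it in KO and 26.5%, 27.1% and 25.6% in wildtype. Every KO library was higher than every wildtype library, and the libraries of a group lay within 2 percentage points of each other. The mean was 40.0% ± 1.11 (SD, n = 2) in KO and 26.4% ± 0.752 (SD, n = 3) in wildtype, a difference of 13.6 percentage points. A two-sided exact permutation test gave p = 0.2, the smallest it can give with 2 against 3 samples, and p = 0.1, again the smallest possible, with the 6 libraries as labelled. Over the 11 alternatives the difference ranged from 12.8 to 14.4 percentage points.

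The similar switched share of the KO libraries was made up differently. Gamma genes held 27.5% of the sum in KO replicate 1 and 16.1% in each of KO replicates 2 and 3, against 7.18%, 5.71% and 7.85% in wildtype. Igha held 13.3%, 22.9% and 23.2% in KO and 19.2%, 21.4% and 17.8% in wildtype. KO replicate 1 thus had the most gamma and the least alpha transcript of the 6 libraries. Ighm held 57.1%, 60.2% and 59.7% in KO and 68.2%, 69.6% and 71.1% in wildtype, and Ighd 2.08%, 0.793% and 0.859% against 5.30%, 3.27% and 3.32%. In both of these unswitched isotypes every KO library was below every wildtype library. Together they are the remainder of the switched share, so their joint share is no separate result. The level of Ighm itself overlapped between the groups.

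**Figure D3:**
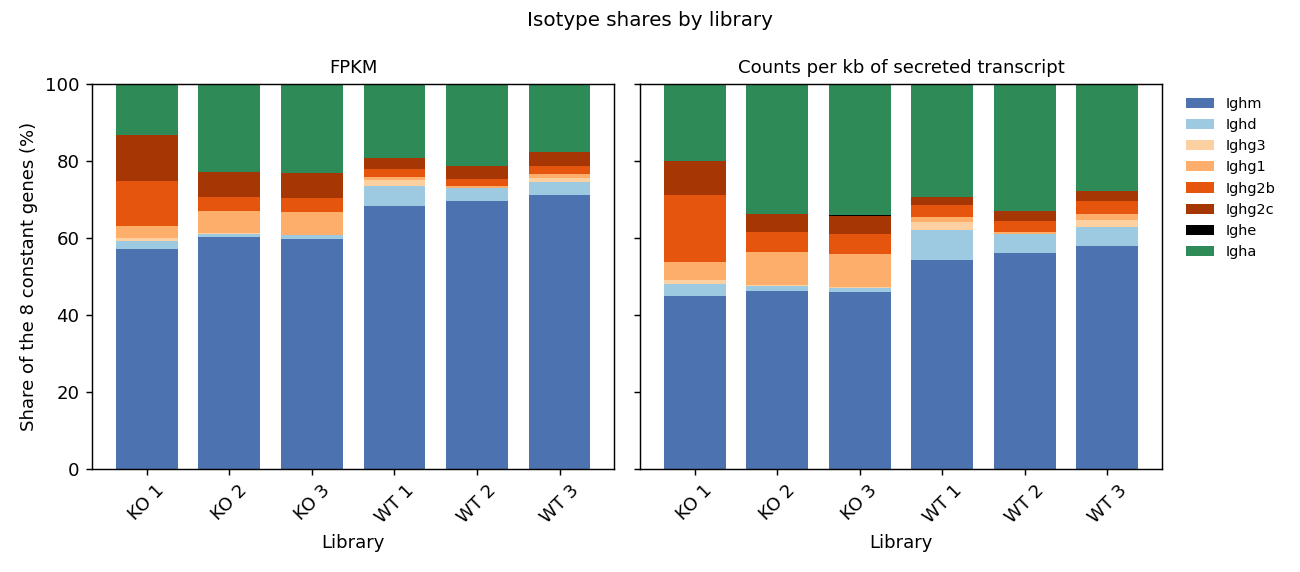
Share of each isotype in the summed FPKM of the 8 heavy-chain constant genes (percent, y axis) as stacked bars, 1 for each of the 3 KO and 3 wildtype (WT) libraries, with the same share by counts per kilobase of secreted transcript on the right. By FPKM, class-switched isotypes together take 39.0% to 40.8% in KO and 25.6% to 27.1% in wildtype, with a larger gamma and a smaller Igha part in KO replicate 1 than in KO replicates 2 and 3.

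Within the gamma genes the mixture also differed between the KO libraries. Of the summed gamma FPKM, Ighg1 took 11.3%, 35.7% and 36.5% in KO and 12.8%, 6.02% and 12.6% in wildtype. Ighg2b took 42.2%, 22.2% and 21.9% in KO and 26.9%, 32.0% and 28.1% in wildtype. Ighg3 took 2.50%, 1.31% and 1.24% in KO and 19.2%, 2.18% and 13.5% in wildtype. The groups overlapped in the gamma share of each of these genes.

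The order of some members depended on the length behind the FPKM. The lengths implied by counts and FPKM matched the union of all annotated exons, secreted and membrane forms together, to within 1% for the 7 members with enough counts in every library. That union was 2592 bases for Ighg1, 2678 for Ighg2b and 2668 for Igha, but 1326 for Ighg2c, whose annotated membrane transcript has 3 noncoding bases where Ighg2b has 1352. The secreted transcripts are of similar length, 1111 bases for Ighg2c and 1114 for Ighg2b. By FPKM, Ighg2c exceeded Ighg2b in 6 of 6 libraries, and by counts per kilobase of secreted transcript Ighg2b exceeded Ighg2c in 6 of 6. On that scale Ighg1 also passed Ighg2c in KO replicates 2 and 3, with shares of 8.44% and 8.60% against 4.77% and 4.71%. Ighd likewise passed Ighg2c in wildtype replicates 2 and 3, with 4.93% and 5.07% against 2.59% and 2.76%. This rests on the secreted length of Ighd, 802 bases, where its membrane transcript has 1806, although IgD is seldom secreted. Comparisons of 1 gene between libraries use 1 length throughout, but whether the mix of secreted and membrane forms differed between libraries was not tested. The switched share was higher when counts were divided by the secreted length, at 52.0%, 52.6% and 53.0% in KO and 37.9%, 39.1% and 37.1% in wildtype, and the gap between the groups was 14.4 percentage points. By deposited counts alone it was 45.3%, 45.2% and 45.6% in KO and 32.3%, 33.0% and 31.1% in wildtype. The 95% Wilson intervals on fragments, which cover counting error only, reached from 44.7% to 46.0% over the KO libraries and from 30.7% to 33.5% over the wildtype libraries.

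The other genes of antibody-producing cells were examined next, beginning with the partners of the heavy chain. Igkc, the kappa light-chain constant gene, was at 2127, 2819 and 2830 FPKM in KO and 2484, 2635 and 2738 FPKM in wildtype, and the groups overlapped. For 100 FPKM of light-chain constant genes there were 46.4, 52.2 and 51.7 FPKM of heavy-chain constant genes in KO and 50.5, 42.9 and 50.1 in wildtype. The groups overlapped in this ratio. Of the lambda genes, Iglc3 had a log2 difference of -1.22 (SE 0.15) and Iglc2 of -0.41 (SE 0.12). Iglc1 was at 73.3, 240 and 248 FPKM in KO and 78.1, 96.7 and 84.9 FPKM in wildtype, so that KO replicate 1 was the lowest and KO replicates 2 and 3 the highest, as for Igha. Close lambda paralogs may share reads, so these values are less certain than those of the heavy chains.

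Jchain, the joining chain of secreted IgM and IgA, was at 128.1, 164.9 and 174.3 FPKM in KO and 161.6, 227.5 and 177.7 FPKM in wildtype, with overlap. Gamma transcripts per 100 FPKM of Jchain were 228, 160 and 152 in KO and 61.5, 31.0 and 65.9 in wildtype, without overlap. The 16 genes of the secretory switch and plasma cell list summed to 341 to 427 FPKM in KO and 390 to 456 in wildtype. Of them 5 were lower at an unadjusted p under 0.05, where 6.07% of all genes were, and 0 higher, where 7.63% were. The smallest p-values were those of Slamf7 (log2 difference -0.75), Irf4 (-0.64), the surface marker Sdc1 (-0.65) and Mzb1 (-0.62). Xbp1, the factor that expands the secretory apparatus, was at 67.5, 71.8 and 72.6 FPKM in KO and 54.3, 61.1 and 56.1 FPKM in wildtype, chosen after its values were seen. The plasma cell sum, of which Jchain is the largest part, overlapped between the groups. In 6 of the 16 genes every KO library was below every wildtype library, where 13.7% of all genes were. In 2 of the 16 every KO library was above every wildtype library, where 11.3% of all genes were. The summed gamma genes, at 292.6, 264 and 265 FPKM in KO and 99.3, 70.6 and 117 FPKM in wildtype, did not overlap.

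Markers of B cells before secretion were lower in KO. All 16 genes of the B lineage list had a lower KO level at an unadjusted p under 0.05, where 6.07% of all genes did. Their median log2 difference was -1.19, against -0.02 over all genes tested, and their sum was 126.5 to 183.8 FPKM in KO and 360 to 414 in wildtype. The smallest p-values were those of the transcriptional coactivator Pou2af1 (log2 difference -1.19), Spib (-1.23), Pax5, which fixes B cell identity (-1.55), and Cd72 (-1.20). In the immature B lineage list, 10 of 12 tested genes were lower at an unadjusted p under 0.05, where 6.07% of all genes were, and 1 was higher, where 7.63% were, with a median of -1.47, and the sum was 53.8 to 55.8 FPKM in KO and 103 to 119 in wildtype. Vpreb3, Dntt, Ebf1 and Il7r led it, with log2 differences from -1.63 to -1.10. None of these genes passed the adjusted threshold in the 5-sample edgeR fit. With the 6 libraries as labelled, 12 of the 16 B lineage genes and 9 of the immature ones did so as lower, where 1.25% of all genes did. In the immature list 1 gene did so as higher, where 2.46% of all genes did. The Ighd level moved with these markers, whereas Ighm and Igkc overlapped between the groups, and the part of the markers in the member values was not tested.

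**Figure D4:**
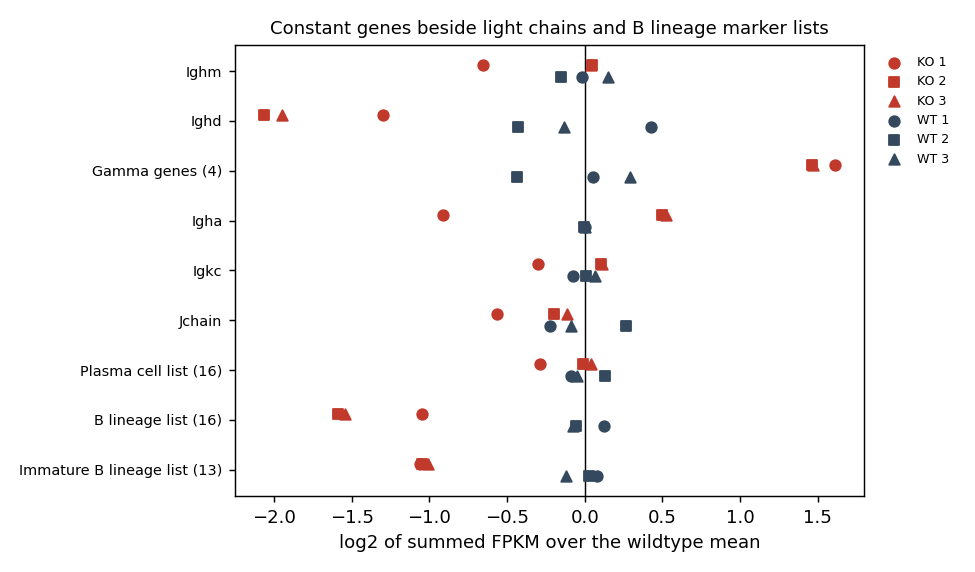
Log2 of the FPKM or summed FPKM in each library over the wildtype mean (x axis) for members, light chain, Jchain and marker lists (numbers of genes in brackets), with KO libraries in red and wildtype (WT) libraries dark, 1 marker shape per replicate. In KO the sum of the 4 gamma genes lies from 1.46 to 1.61, Ighd and both B lineage lists lie below -1, Igkc lies from -0.30 to 0.11, Jchain from -0.56 to -0.12 and the plasma cell list from -0.29 to 0.04.

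The machinery and signals of class switching were followed by lists of their own. Of the 18 genes for class switch recombination, all tested, 0 were higher at an unadjusted p under 0.05, where 7.63% of all genes were. At the same threshold 2 were lower, where 6.07% were. By direction alone 3 were higher and 15 lower, with a median log2 difference of -0.13, against -0.02 over all genes tested. The 2 lower at the threshold were Xrcc6 (log2 difference -0.46) and Xrcc5 (-0.42), which encode the Ku subunits that bind broken DNA ends. Of the 21 genes for signals that direct switching, 17 were tested, and 5 were higher and 3 lower at an unadjusted p under 0.05, beside the same shares of all genes (7.63% and 6.07%). Tnfrsf13c, the receptor through which BAFF keeps B cells alive, had a log2 difference of -1.38, and its ligand Tnfsf13b had 0.61. The related ligand Tnfsf13 (APRIL), a survival factor of plasma cells, had 0.79, and Cd40, the receptor for T cell help, -0.72. Il4, the cytokine that directs switching to Ighg1 and Ighe, was at 0.617, 0.308 and 0.420 FPKM in KO and 0.644, 0.604 and 0.970 FPKM in wildtype, with overlap.

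Processing factors that set the choice between Ighm and Ighd, or between the membrane and secreted forms, formed a list of 4 genes. Zfp318, which lets transcription run on to Ighd, was at 1.29, 1.20 and 1.12 FPKM in KO and 2.84, 1.62 and 1.99 FPKM in wildtype. Every KO library was below every wildtype library, where 13.7% of all genes were, and the log2 difference was -0.78 (SE 0.24). Any part of Zfp318 in the level of Ighd was not tested. Ell2, an elongation factor that favours the secreted form, had a log2 difference of -0.40 (SE 0.13). The other members of the list were Hnrnpll, with 0.21, and Cstf2, with 0.00. Both Zfp318 and Ell2 were lower at an unadjusted p under 0.05, where 6.07% of all genes were, and neither passed the adjusted threshold.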

How the data were processed

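Polyadenylated RNA of 6 libraries was sequenced as paired reads of 150 bases with strand marking and adapters that carry molecular identifiers. The authors deposited 1 table of 34709 genes with FPKM values and estimated counts per library, unscaled between libraries. The submitters' processing notes name cutadapt 1.9, HISAT2 2.0.4, UMI-tools, StringTie 1.3.4d, DESeq2 and edgeR. Their roles and settings, and whether strand and identifiers were used in counting, were not given in the sources used here. The deposited counts were whole, so none was rounded, and low values piled up at 4 (6596 values) against 3 (4170) and 5 (2332), so 4 counts were read as 1 fragment. Per-library columns left unused numbered 0. Gene positions of the members were identical to GENCODE M21 (GRCm38).

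Groups and replicate numbers came from the sample titles. For each pair of libraries the noise ratio is the median, over genes, of the squared difference of scaled fragments divided by its Poisson expectation, relative to a chi-square variable. KO replicates 2 and 3 were averaged (counts rounded), a choice made on this ratio. Genes that averaged at least 0.5 FPKM were tested with edgeR 4.0.16 (R 4.3.3, TMM scaling, quasi-likelihood test, tested on simulated data), with Benjamini-Hochberg adjustment over all 15373 genes and a threshold of 0.05. The standard error was taken as the size of the log2 difference over the square root of F. Shares were compared by a two-sided exact permutation test (scipy 1.17.1). The 16 alternatives were median-of-ratios scaling, no filter, a minimum of 5 FPKM, DESeq2 1.42.0, limma 3.58.1 on log2(FPKM + 1) and log2(FPKM + 0.1), counts divided by 4, the 6 libraries as labelled, a replicate block, and samples left out. For shares, counts per length of the secreted transcript were added after seeing the data.

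Named were all 8 members, up to 4 genes per list with the smallest unadjusted p, and the 3 genes most like each member with a mean of at least 5 FPKM. Xbp1, Il4, Cd79a, Jchain and Fcgrt were picked outside this rule, with values known. The members and the 11 gene lists were chosen with earlier results of these data known, so counts over them describe these libraries. The knocked-out gene is not reported here.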

Additional observations from a re-analysis of the deposited data

How the results depend on the processing

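The count of genes with an adjusted p under 0.05 was 0 in the 5-sample edgeR fit. It was 21 with no filter on low values, 879 with DESeq2, 570 with the 6 libraries as labelled, and 0 to 352 when samples were left out, the highest without KO replicate 1, where a single KO sample is assumed to vary like the wildtype ones. Leaving out KO replicates 2 and 3 together gave 9. The members called were 1 (Ighg2c) with no filter, 4 (Ighd, Ighg1, Ighg2b, Ighg2c) with DESeq2, 3 (Ighd, Ighg1, Ighg2c) with the 6 libraries as labelled, and 0 to 3 when samples were left out, with 3 (Ighd, Ighg1, Ighg2c) without KO replicate 1 and 1 (Ighg2b) without KO replicates 2 and 3. The cause was not tested.

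Log2 differences turned to positive values for Ighm, at 0.00812 without KO replicate 1, and for Igha, at 0.0121 with no filter, 0.15 with the 6 libraries as labelled, 0.0433 with the replicate block and 0.47 without KO replicate 1. With samples left out they ranged from -0.57 to 0.00812 for Ighm and from -0.83 to 0.47 for Igha. Ighd, Ighg1, Ighg2b, Ighg2c and Ighg3 kept their direction under all 16 alternatives. The difference of the switched share was 12.8 to 14.4 percentage points when samples were left out, and kept its direction under all 11 alternatives.

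The replicate numbers showed no sign of pairing the samples. This check cannot exclude pairing, because KO replicates 2 and 3 were nearly alike and their deviations are not independent. Deviations of same-numbered libraries from their group means correlated at -0.207, -0.184 and 0.00138. With the replicate block on the 6 libraries as labelled, 0 genes and 0 members were called, where the same libraries without it gave 570 and 3.

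Depth limited Ighe, with 0 to 145 deposited counts per library, whereas every other member had at least 235.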

Other observations

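Receptors that bind the constant regions were a list of their own, with 11 of 13 genes tested. At an unadjusted p under 0.05, 2 were higher, where 7.63% of all genes were, and 3 lower, where 6.07% were. None passed the adjusted threshold in the 5-sample edgeR fit. With the 6 libraries as labelled, edgeR called 1 higher (Fcgr3, adjusted p 0.0444), where 2.46% of genes were, and 1 lower (Fcmr, adjusted p 0.0358), where 1.25% were. Fcmr, the IgM receptor of B cells, had a log2 difference of -1.29, and Fcer2a, the low-affinity IgE receptor CD23, one of -1.35. Fcgr3, an activating IgG receptor of myeloid cells, had 0.59, and Fcer1g, the gamma subunit that signals for it, 0.50. Fcgrt, which spares IgG from breakdown, was at 24.4, 19.2 and 19.5 FPKM in KO and 32.5, 26.9 and 31.4 FPKM in wildtype, chosen after its values were seen. Of the tested genes 5 were higher and 6 lower, with a median log2 difference of -0.08. The list summed to 436 to 472 FPKM in KO and 361 to 372 in wildtype, of which Fcer1g and Fcgr3 made up most. In the neutrophil lineage list 7 of 10 genes were higher at an unadjusted p under 0.05, where 7.63% of all genes were, and its part in these values was not tested.

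For each member, the 3 genes with the most similar profile were sought among the 7614 genes that averaged at least 5 FPKM, by the root mean square difference of centred log2(FPKM + 1) values over the 5 samples. For Ighg1 and Ighg2b all 3 were immunoglobulin variable genes. Those of Ighg1 were Igkv3-4 (difference 0.292), Ighv1-72 and Igkv2-112, and those of Ighg2b were led by Ighv1-76 (0.290) and Igkv19-93. Igkv3-4 was at 75.2, 176 and 191 FPKM in KO and 31.0, 15.0 and 51.1 FPKM in wildtype. Igkv19-93 was at 279, 115 and 123 FPKM in KO and 92.1, 75.8 and 68.7 FPKM in wildtype. For Ighg2c they were Mapk13 (0.232), Ighv1-66 and Ceacam10. For Ighd they were Aspn (0.116), Adipoq (0.130) and H2-Ob (0.154). For Ighg3 they were Ifit3 (0.393), Ighv5-4 and Rtp4. Ifit3, an interferon-induced gene, was at 4.46, 2.65 and 2.37 FPKM in KO and 13.5, 2.63 and 12.4 FPKM in wildtype, with wildtype replicate 2 apart from the other wildtype libraries, as for Ighg3. For Igha they were mt-Ts2, Gm50388 and Knl1, and for Ighm Aldh18a1, Gm27616 and Ppat. With 5 samples and 7614 genes, nothing is read from them about shared control.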
